A study of Mus musculus with 8 samples.

Results

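The genes described here encode the proteins of the cytosolic ribosome. They were chosen by symbol from the GENCODE annotation of the mouse genome (GRCm38): protein-coding genes named Rps, Rpl or Rplp with a number, and Rpsa, without the S6 kinases and the paralogues Rpl10l, Rpl3l and Rps27l. The rule gave 77 genes of 21444 with a value, 31 of the small 40S subunit and 46 of the large 60S subunit. No measured value entered the rule, but it was chosen with earlier results of these data known. All 77 had counts.

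RNA was sequenced from primordial germ cells, from which sperm and eggs derive, taken from mouse embryos of mixed C57BL/6 and 129 background at embryonic day 11.5. The embryos carried a dPE Oct4 GFP reporter, a green fluorescent protein driven by a part of the Oct4 promoter that is active in germ cells, and the cells were isolated by flow sorting. The Control group held 4 libraries of the genotype Blimp1Cre;Prmt5flox/+, and the Prmt5 KO group held 4 libraries of the genotype Blimp1Cre;Prmt5flox/flox. Both groups therefore carried Cre recombinase under Blimp1, a gene switched on as germ cells are specified but also active in other lineages, and both carried at least 1 floxed copy of Prmt5. Libraries were prepared from 50 pg of total RNA each, by a method designed for single cells, and read on a SOLiD instrument. Whether a group's libraries came from separate embryos is not in the labels. The p-values set the difference between groups against the spread between libraries within groups, and that spread may be technical in part.

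A ribosome holds 1 copy of nearly every ribosomal protein, joined to ribosomal RNA, and the acidic stalk proteins are an exception with several copies. The messenger RNAs of these proteins typically start with a cytosine followed by a run of pyrimidines, the 5′ terminal oligopyrimidine (TOP) sequence, through which the mTOR pathway controls their translation. The mouse genome also holds many processed pseudogenes of them, reverse-transcribed copies of the messenger RNA that resemble the parent gene closely. PRMT5 is an arginine methyltransferase, and Rps10 is one of its known substrates.

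Sequences are shown first because many members resemble their pseudogene copies, and a read that fits several genes equally well cannot be assigned from its sequence alone. The first lines give coding bases 101 to 150, counted from the start codon, of 2 of the highest members per length, each followed by the most similar stretch found in another gene. Capitals mark bases of that other gene that differ from the member, compared without gaps. Rpl8 lies at chr15:76904078-76906314 and Rpl4 at chr9:64173375-64178666, both on the plus strand (GRCm38). The stretch of Rpl8 differed at 10 bases from the processed pseudogene Gm14294 and that of Rpl4 at 3 bases from Gm5835. These pseudogenes lie at chr2:179364293-179365043 (plus strand) and chr1:143093347-143094616 (minus strand).
Rpl8: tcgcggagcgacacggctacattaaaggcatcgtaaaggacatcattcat
Gm14294: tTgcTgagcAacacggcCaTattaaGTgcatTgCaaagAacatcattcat
Rpl4: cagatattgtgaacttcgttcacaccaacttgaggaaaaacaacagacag
Gm5835: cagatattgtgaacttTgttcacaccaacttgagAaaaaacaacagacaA

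The next lines give the same coding bases of 3 members with low levels, picked as examples. The stretch of Rpl36 (chr17:56613416-56614243, plus strand) occurred without a mismatch in 3 other genes, that of Rpl31 (chr1:39367842-39371911, plus strand) in 3 and that of Rpl38 (chr11:114668524-114672331, plus strand) in 4. A read from such a stretch fits the member and its copies equally well.
Rpl36: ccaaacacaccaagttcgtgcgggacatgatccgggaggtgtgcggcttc
Rpl31: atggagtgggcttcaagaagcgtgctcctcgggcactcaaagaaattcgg
Rpl38: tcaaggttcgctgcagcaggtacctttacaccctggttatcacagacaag

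Promoters were taken from RefSeq (GRCm38.p6), where 57 of the 77 members matched. The lines below show 40 bases before and 20 bases from the annotated start of transcription in 4 members described later, with the pyrimidine run at the start in capitals. They lie at chr4:86857348-86857407 on the minus strand for Rps6, chr17:27635225-27635284 on the minus strand for Rps10, chr11:114668540-114668599 on the plus strand for Rpl38 and chr7:141447611-141447670 on the plus strand for Rplp2.
Rps6: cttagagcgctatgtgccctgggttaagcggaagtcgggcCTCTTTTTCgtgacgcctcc
Rps10: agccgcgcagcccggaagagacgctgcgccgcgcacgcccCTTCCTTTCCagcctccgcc
Rpl38: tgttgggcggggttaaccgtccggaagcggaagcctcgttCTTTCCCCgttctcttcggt
Rplp2: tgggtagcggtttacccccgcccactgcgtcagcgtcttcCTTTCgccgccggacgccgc

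A C with at least 4 more C or T bases at the annotated start was found in 13 of the 57 member promoters (22.8%) and in 800 of 26968 other genes (2.97%). An annotated start can lie some bases from the one used, and no match says only that these letters are not at that position. In the 300 bases around the start, searched on both strands, CCGGAAGT, a motif of ETS factors, was found in 11 members (19.3%) and 4.28% of the others. AAGATGGC, a motif of YY1, was found in 5 (8.77%) and 3.18%. TATAAA, a core of the TATA box, was found in 6 members (10.5%) and 15.7% of the others. These are descriptions of letters in a window and not of binding.

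Gene counts summed to between 1811428 and 6549504 per library, and between 14400 and 17425 genes had at least 1 count. Levels are given as CPM, counts scaled to a common library size. Series of 4 values follow the numbers of the libraries. Prmt5, the targeted gene, was at 89.4, 171, 172 and 118 CPM in Control and at 39.9, 40.5, 35.3 and 26.4 CPM in Prmt5 KO. Its log2 fold change was -1.95 (SE 0.272, adjusted p = 0.0389, edgeR quasi-likelihood test), and it did not pass in 13 of 22 alternative analyses. All 15 germ cell markers had counts, with a summed level of 3513 to 4031 CPM in Control and 3649 to 4109 CPM in Prmt5 KO. Markers of somatic gonad and mesonephros summed to 34.0 to 80.8 CPM in Control, 615 CPM in Prmt5 KO 1 and 37.2 to 56.4 CPM in the other Prmt5 KO libraries. Each of the 14 somatic markers had a count in some library, and 2 stayed under 1 CPM in all of them. In Control, Pax8 averaged 22.7 CPM, Wt1 11.1 CPM and the steroidogenic regulator Nr5a1 0.310 CPM. In Prmt5 KO 1, Acta2 was at 208 CPM, Col3a1 at 115 CPM and Nr5a1 at 14.9 CPM. Endothelial markers summed to 16.5 to 38.0 CPM in Control and 19.96 to 94.5 CPM in Prmt5 KO. Most of the Prmt5 KO sum was Tek, at 72.4, 12.2, 53.7 and 71.0 CPM, and Flt1 was at 21.4 CPM in Prmt5 KO 4. Egfl7 averaged 12.4 CPM in Control and 5.43 CPM in Prmt5 KO. Cdh5, Kdr, Tie1 and Emcn averaged under 1 CPM in Prmt5 KO. Blood markers summed to 21.1 to 43.3 CPM in Control and 6.98 to 43.8 CPM in Prmt5 KO. Most of this was the macrophage gene Csf1r, at 20.6 to 42.7 CPM in Control, and 5 of the 11 blood markers had no counts.

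The ribosomal protein genes held 3.74, 4.14, 3.66 and 4.30% of gene counts in Control and 3.42, 4.86, 4.28 and 4.28% in Prmt5 KO. The groups overlapped, and the lowest and the highest library were both Prmt5 KO. The mean share was 3.96% ± 0.310 for Control and 4.21% ± 0.594 for Prmt5 KO libraries (SD, n = 4 each). The 60S genes held 2.75% ± 0.152 and 2.88% ± 0.327, and the 40S genes 1.21% ± 0.184 and 1.33% ± 0.267. In bulk RNA, fewer cells of a type and less RNA per cell cannot be told apart, and a share shows nothing of the RNA content of a cell.

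Levels differed widely between members of a complex that holds most of them in equal number. For comparison between genes, the counts of the principal transcript alone were scaled to CPM and divided by its length in kilobases. In members whose CPM elsewhere come from another transcript, such as Rpl22, the measures rest on different counts. The median of the 77 members was 306 CPM per kb. The highest, Rpl8, was 775-fold above the lowest, Rpl36. Rpl8 and Rpl4 together held 29.8% of all member counts, and Rpl4, second by counts, had 3.41 times the counts of the third. Of the 77 members, 51 were at 100 CPM or more in all 8 libraries, and the scarcest had 142 counts in all.

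Rpl8, which lies close to the peptidyl transferase centre of the 60S subunit, was at 6063, 7543, 7455 and 6589 CPM in Control and at 6571, 6312, 6569 and 8025 CPM in Prmt5 KO. Rpl4, which lines the tunnel through which the new protein leaves, was at 5414, 5588, 4954 and 5284 CPM in Control and at 5137, 6149, 5810.5 and 5753 CPM in Prmt5 KO. For both genes the groups overlapped, with log2 fold changes of -0.01 for Rpl8 and 0.11 for Rpl4 (adjusted p = 0.991 and 0.804, edgeR quasi-likelihood test). Per length, Rpl8 was at 8123 ± 836 CPM per kb in the Control libraries and 8072 ± 917 in those of Prmt5 KO (SD, n = 4 each), and Rpl4 at 3452 ± 174 and 3714 ± 274. Rpl8 exceeded Rpl4 by more than the spread between libraries in both groups.

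The X-linked Rps4x, at 1220.1 CPM per kb over the 8 libraries, was also among the 5 highest. The next, Rpl13a, was at 1185. In Control Rps4x was at 1174 ± 263 and Rpl13a at 1192 ± 205 CPM per kb (SD, n = 4 each), so these neighbours did not differ beyond their spread. The lowest were Rpl36 at 10.5 CPM per kb, Rps15a at 22.4, Rpl31 at 24.5, Rps29 at 30.0 and Rpl39 at 37.7. The principal transcript of Rps15a is 5179 bases long, far more than its coding sequence of 390 bases, which lowers its value per kb. The order of members was nearly the same in both groups: the correlation of mean log2 CPM between Control and Prmt5 KO over the 77 members was 0.99 (Pearson), where each gene has the same sequence and length in both.

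The low members tended to carry more sequence that also occurs elsewhere. Of the 50-base stretches of a member's coding sequence, a median of 91.6% occurred without a mismatch in the annotated transcripts of another gene. In 29 members all coding stretches did so, and in 59 members at least 80% did. Of the 4 members under 25%, all lay above the median level of the members. Among them were Rps3 (8.09%), Rpl8 (8.73%) and Rpl4 (20.3%), at 838, 8097 and 3583 CPM per kb. The 19 members with the highest level per kb had a median of 77.5% of shared coding stretches and the 19 with the lowest a median of 100%. Single members went against this: Rps4x had 90.1% at 1220.1 CPM per kb, and Rpl22 had 31.0% at 262 CPM per kb.

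Over the 77 members, log2 CPM per kb and the shared share of the coding sequence had a correlation of -0.51 (Pearson; Spearman -0.45), and with 35-base stretches -0.54 (Spearman -0.52). Level per kb and coding length had a correlation of 0.55. Coding length and shared share had a correlation of -0.17. With the stretches of the whole transcript, untranslated parts included, the correlation with level was -0.08. All points come from the same 8 libraries, and genes are not independent replicates. The 197 pseudogenes named after 55 of the members held between 0.0238 and 0.0510% of gene counts in a library. Copies under other names, such as Gm14294 and Gm5835, are not among these 197. All annotated pseudogenes, of any parent gene, held between 3.34 and 4.24% of gene counts in a library. How reads that fit several places were treated is not given by the sources used here, and whether lost reads lower these members was not tested.

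**Figure D1:**
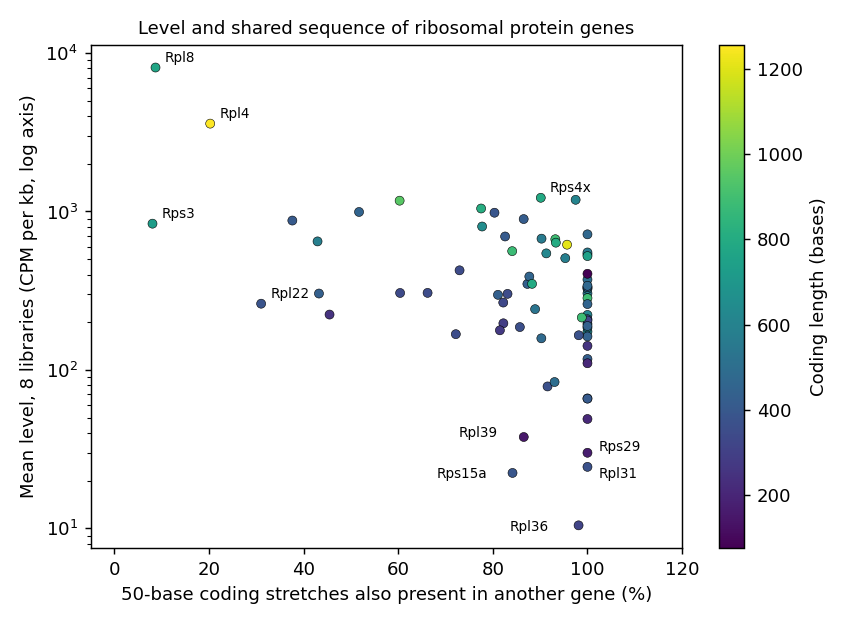
Mean level over the 8 libraries (CPM per kb of the principal transcript, log axis) against the percent of a member's 50-base coding stretches that also occur in another gene; each point is 1 of 75 ribosomal protein genes, coloured by coding length in bases. Rps3, Rpl8 and Rpl4, all under 25%, lie between 838 and 8097 CPM per kb, and Rpl36, the lowest member, lies at 10.5 CPM per kb with 98.1% shared.

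The comparison of Prmt5 KO with Control sets Prmt5flox/flox against Prmt5flox/+ cells, both with Cre, and holds no wild type. It asks whether the messenger RNA of the ribosome differs between these genotypes. None of the 77 ribosomal protein genes was called higher or lower by edgeR's quasi-likelihood test at an adjusted p of 0.05, where 0.0273% of the 10990 genes tested were called. DESeq2 and limma voom also called 0 members (background 1.02% and 0.0091%). At an unadjusted p under 0.05 in edgeR (background 8.15% in either direction), 5 members were higher in Prmt5 KO (background 4.47%) and 0 were lower (background 3.69%). The lowest adjusted p of a member was 0.409. The groups did not overlap in 1 member, which was higher in Prmt5 KO (background 2.63%), and in 0 members in the other direction (background 2.27%).

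Most members had small positive differences. The log2 fold change was above 0 in 60 members and below 0 in 17, where 52.7% of all genes tested were above 0. The median was 0.10 for all members, 0.11 for the 40S genes and 0.09 for the 60S genes, against 0.03 over all genes tested, and members ran from -0.40 to 0.64. The standard error of a member had a median of 0.215, larger than the median difference. The median depended on single libraries: it was 0.23 without Prmt5 KO 1 (72 members above 0), 0.20 without Control 4, 0.04 without Control 3 and 0.03 without Prmt5 KO 2 (44 members above 0), and 0.26 without Prmt5 KO 1 and 4. At an unadjusted p under 0.05 there were 17 members without Prmt5 KO 1, where 985 of 11325 genes tested passed. Without Prmt5 KO 2 there was 1 member, where 1019 of 11422 genes tested passed. No member was called in any of these analyses.

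**Figure D2:**
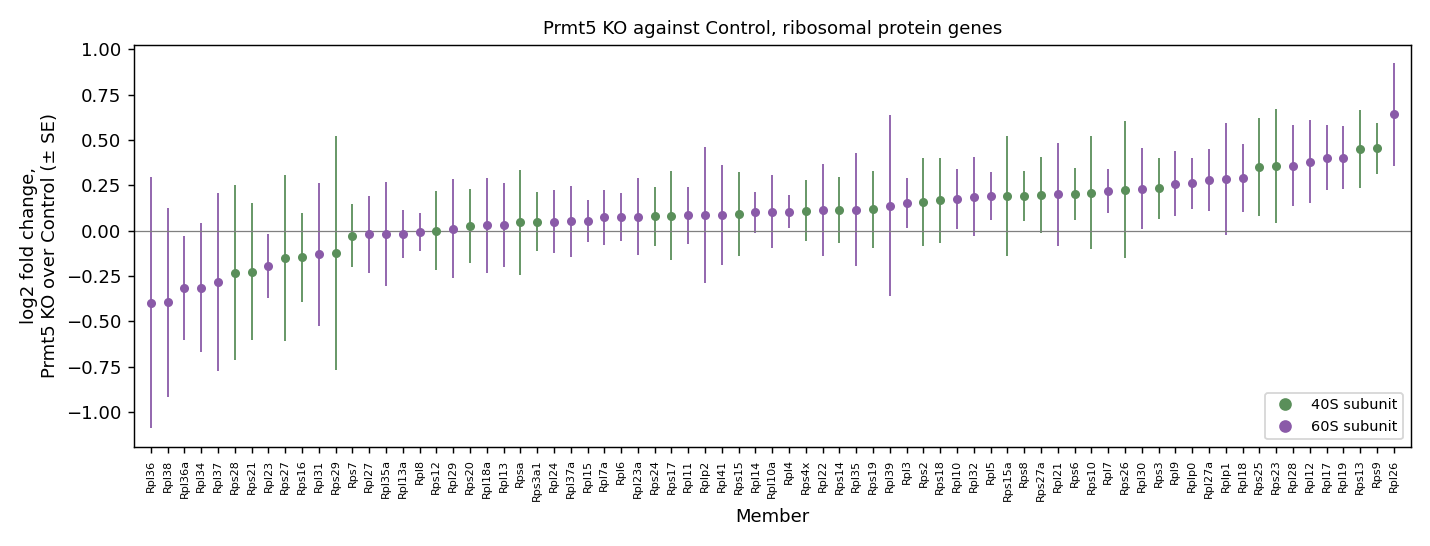
Log2 fold change of Prmt5 KO over Control (y axis; bars are ± 1 standard error from edgeR) for 75 members (x axis), ordered by the fold change and coloured by subunit. Values run from -0.40 for Rpl36 to 0.64 for Rpl26, with members of both subunits on either side of 0.

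Among the 8 members with the smallest p on the higher side were Rps9, Rpl19, Rpl26, Rpl17, Rps13, Rplp0 and Rpl7. Rps9, a protein that joins the 40S subunit early, was at 369, 474, 429.5 and 402 CPM in Control and at 661, 617, 545 and 469.5 CPM in Prmt5 KO. The lowest Prmt5 KO library lay just under the highest Control library. Its log2 fold change was 0.45 with a standard error of 0.141 (unadjusted p = 0.00669, adjusted p = 0.409, edgeR). Rpl19, which forms a bridge between the subunits, was at 130.5, 109, 123 and 116 CPM in Control and at 150.1, 159.7, 139 and 184 CPM in Prmt5 KO. Every Prmt5 KO library lay above every Control library, with means of 119.6 ± 9.13 and 158 ± 19.2 CPM (SD, n = 4 each), a log2 fold change of 0.40 and an adjusted p of 0.582 (edgeR).

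Rpl17, at the wall of the exit tunnel, went from 368 ± 89.3 to 486 ± 62.5 CPM (mean ± SD, n = 4 each; log2 fold change 0.40, adjusted p = 0.595, edgeR). Rps13 went from 129.5 ± 17.0 to 177 ± 45.9 CPM and Rpl7 from 1128 ± 87.7 to 1311 ± 176 CPM (SD, n = 4 each), with log2 fold changes of 0.45 and 0.22 and overlapping groups.

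The 8 with the smallest p on the lower side were Rpl36a, Rpl23, Rpl34, Rpl38, Rps16, Rps21, Rpl37 and Rpl36. Their log2 fold changes ran from -0.40 for Rpl36 to -0.15 for Rps16, with unadjusted p from 0.287 to 0.575 (edgeR) and overlapping groups in each. Rpl34 was at 172, 99.1, 75.2 and 166 CPM in Control and at 48.6, 161, 123 and 82.0 CPM in Prmt5 KO, where Prmt5 KO 1 and 4 were low and the others were not. Rps21 was at 101, 83.0, 61.4 and 136 CPM in Control and at 33.4, 137, 93.4 and 64.5 CPM in Prmt5 KO. The lowest library of both genes was Prmt5 KO 1, and the highest was Control 1 for Rpl34 and Prmt5 KO 2 for Rps21. Rpl36, the scarcest member, was at 3.21 to 5.36 CPM in Control and 0.844 to 6.59 CPM in Prmt5 KO.

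Among the proteins of the stalk, which recruits translation factors to the 60S subunit, Rplp0 forms the base and Rplp1 and Rplp2 the flexible arms. Rplp0 was at 1043, 1567, 1671 and 1500.3 CPM in Control and at 1653, 1817, 1589.6 and 1865 CPM in Prmt5 KO (log2 fold change 0.26, adjusted p = 0.672, edgeR). Control 1 was the low library, and the groups overlapped. Rplp1 was at 111, 119.6, 110.3 and 209 CPM in Control and at 78.0, 236, 177 and 180.2 CPM in Prmt5 KO. Rplp2, whose TOP start is printed above, was at 205, 316, 195 and 429.9 CPM in Control and at 105, 507, 292 and 314 CPM in Prmt5 KO. Both arms were lowest in Prmt5 KO 1 and highest in Prmt5 KO 2, while Rplp0 was not. Per length, Rplp0 stood at 1169.6 CPM per kb and both arms at 306. Rpl12, next to the stalk base, went from 401 ± 104 to 522 ± 145 CPM (mean ± SD, n = 4 each; log2 fold change 0.38, adjusted p = 0.718, edgeR).

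Rpl5 and Rpl11 bind the 5S ribosomal RNA and, when free of ribosomes, bind the ubiquitin ligase MDM2, which restrains p53. Rpl23 also binds MDM2, and Rpl26 binds the messenger RNA of p53. Rpl5 was at 524, 618, 493 and 536 CPM in Control and at 572, 744, 603 and 556 CPM in Prmt5 KO, with overlapping groups (log2 fold change 0.19, adjusted p = 0.758, edgeR). Exons of Rpl5 overlap those of Fam69a on the opposite strand over 953 bases, and the strand setting is not given, so its value is uncertain. Rpl11 was at 244, 234, 245 and 259.6 CPM in Control and at 196, 267, 288 and 292 CPM in Prmt5 KO (0.09, adjusted p = 0.944). Its Control libraries lay within a narrow range, and the Prmt5 KO libraries spanned it on both sides. Rpl23 went from 1012 ± 214 to 885 ± 203 CPM (mean ± SD, n = 4 each; log2 fold change -0.19).

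Rpl26 had the largest positive fold change of the members. It was at 182, 95.5, 88.9 and 204 CPM in Control and at 151, 262, 209.7 and 275 CPM in Prmt5 KO. Control 2 and 3 were low, and Prmt5 KO 1 lay within the Control range. The log2 fold change was 0.64 with a standard error of 0.284 (unadjusted p = 0.0414, adjusted p = 0.595, edgeR). In the same libraries Mdm2 had a log2 fold change of 1.09 and Trp53, which encodes p53, of 0.27 (adjusted p = 0.0490 and 0.750, edgeR). The adjusted p of Mdm2 lay just under the threshold and did not pass in 16 of 22 alternative analyses, in which its log2 fold change ran from 1.03 to 1.19.

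Rps10, Rps2 and Rps3 are known substrates of arginine methyltransferases, Rps10 of PRMT5, Rps2 of PRMT3 and Rps3 of PRMT1. Rps10 was at 43.6, 89.7, 47.7 and 94.8 CPM in Control and at 51.8, 95.3, 86.5 and 85.7 CPM in Prmt5 KO. Control 1 and 3 and Prmt5 KO 1 were low, and the others lay close together (log2 fold change 0.21, adjusted p = 0.922, edgeR). Exons of Rps10 overlap those of other annotated genes on both strands, and no source here gives the strand setting of the counts, so its value is uncertain. Rps2 was at 816, 477, 371 and 657 CPM in Control and at 499.8, 875, 488 and 735 CPM in Prmt5 KO (0.16). Rps3 was at 1294, 1483, 1236 and 1864 CPM in Control and at 1218, 1996, 1764 and 1929 CPM in Prmt5 KO (0.23). The groups overlapped for both, with adjusted p of 0.925 and 0.764 (edgeR). RNA counts carry no measure of protein methylation.

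In the 40S subunit, Rps6, the target of the S6 kinases, was at 399, 413, 422 and 472 CPM in Control and at 394, 579.8, 463 and 530.1 CPM in Prmt5 KO (log2 fold change 0.20, adjusted p = 0.756, edgeR). Prmt5 KO 1 was its lowest library and Prmt5 KO 2 its highest. Rpsa, known also as the laminin receptor, was at 287, 367, 313 and 666 CPM in Control and at 267, 374, 394 and 653 CPM in Prmt5 KO. It differed from most members in that both libraries numbered 4 were high and the other 6 were at 394 CPM or lower. Rps14, Rps15, Rps19, a gene of Diamond-Blackfan anaemia, and Rps27a, made as a fusion with ubiquitin, had log2 fold changes of 0.11, 0.09, 0.12 and 0.20, and their groups overlapped.

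Of the 4 X-linked members, Rps4x went from 1144 ± 257 to 1235 ± 194 CPM and Rpl10, which joins the 60S subunit late, from 406 ± 45.5 to 459 ± 103 CPM (SD, n = 4 each). Rpl36a went from 109.9 ± 16.8 to 88.2 ± 34.0 CPM and Rpl39 from 22.0 ± 6.26 to 24.2 ± 15.3 CPM (SD, n = 4 each). Their log2 fold changes were 0.11, 0.17, -0.32 and 0.14, with the groups overlapping in each. Rpl3, at the peptidyl transferase centre, was at 924, 785, 712 and 738 CPM in Control and at 1059, 897, 737 and 817 CPM in Prmt5 KO (log2 fold change 0.15). It was highest in Prmt5 KO 1, the library in which 42 of the 77 members were lowest. Rpl22 went from 197 ± 55.8 to 213 ± 67.6 CPM and Rpl41, the shortest member with 75 coding bases, from 232 ± 73.4 to 247 ± 83.7 CPM (SD, n = 4 each).

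Members varied between libraries of 1 genotype, with a median SD of log2 CPM within groups of 0.360. This was less than the 0.567 over all genes tested. It lay near the 0.386 of mitochondrial ribosomal proteins and the 0.344 of ribosome biogenesis genes. What set the members apart from these lists was that they varied together. Deviations of log2 CPM from the group mean were compared between all pairs of members over the 8 libraries. The median correlation was 0.62, 87.8% of pairs were positive, and the first principal component held 61.1% of the variance. Among 40S genes the median was 0.69, and among 60S genes 0.58. By the same measure it was 0.02 for 2050 other genes with a mean of at least 100 CPM, 0.01 for 78 mitochondrial ribosomal proteins, 0.01 for 85 genes of ribosome biogenesis and 0.02 for 30 other translation and TOP genes. None of these sets was matched to the members in coding length, with which the deviations went, as described below. The correlation among short genes outside the ribosome was not computed. These correlations are descriptions over 8 libraries that each member shares, and no p is attached to them.

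Prmt5 KO 1 carried much of this. It was the lowest library for 42 of the 77 members, followed by Control 3 for 17 and Control 1 for 11. Prmt5 KO 2 was the highest for 36, followed by Prmt5 KO 4 for 16 and Control 4 for 9. The mean log2 CPM of the members was 7.81, 8.00, 7.67 and 8.14 in Control and 7.43, 8.34, 8.07 and 8.05 in Prmt5 KO. Without Prmt5 KO 1 the median correlation among members was 0.39, against 0.03 for the other genes with at least 100 CPM and -0.01 for the mitochondrial ribosomal proteins. Leaving out any other single library gave 0.57 to 0.69. Prmt5 KO 1 was also the library with the high sum of somatic markers (615 CPM) and, among the Prmt5 KO libraries, with the highest share of counts on mitochondrial genes (11.3%). The part of these in the result was not tested.

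**Figure D3:**
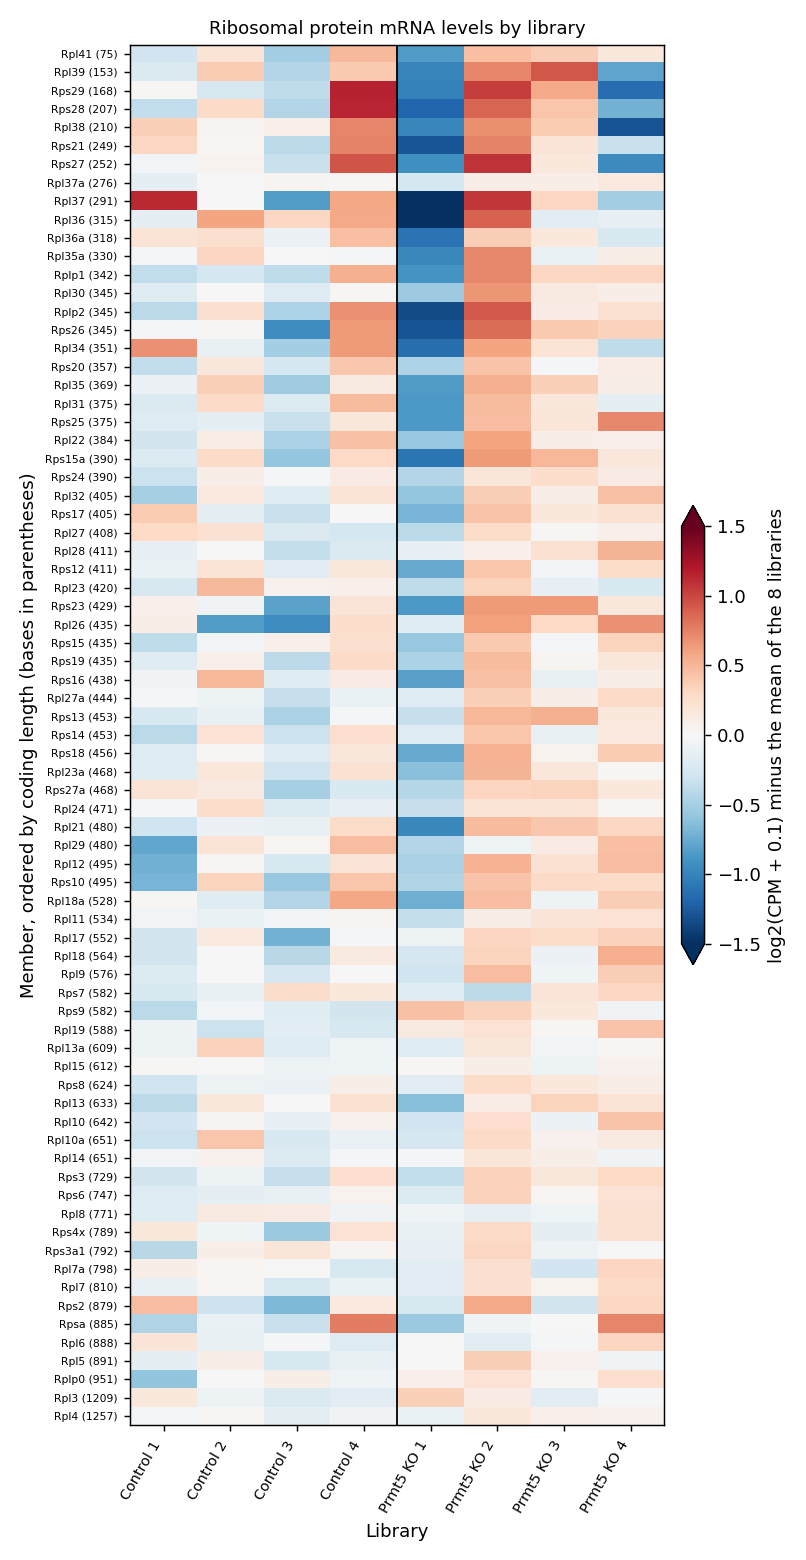
Level of 75 members (rows, ordered from the shortest coding sequence at the top, length in bases in parentheses) in each library (columns), as log2 (CPM + 0.1) minus the mean of the 8 libraries; blue is lower and red higher. The column of Prmt5 KO 1 is blue and that of Prmt5 KO 2 red over the upper rows, and the contrast fades toward the long members at the bottom.

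The shared deviation went with the length of the coding sequence. For the 47 members with under 500 coding bases the median correlation between pairs was 0.76 and 99.4% of pairs were positive, and for the 30 longer members it was 0.37. Without Prmt5 KO 1 the values were 0.51 and 0.29. Prmt5 KO 1 was the lowest library for 34 of the 47 short and 8 of the 30 long members. Short members were 0.58 below long members in Prmt5 KO 1, 0.31 above them in Prmt5 KO 2 and 0.27 above them in Control 4, as the difference in mean log2 deviation. The other libraries lay between -0.19 and 0.18.

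Binned by coding length, the median log2 deviation in Prmt5 KO 1 was -0.98 for the 9 members under 300 bases, -0.88 for the 15 from 300 to 399, -0.45 for the 23 from 400 to 499, -0.18 for the 16 from 500 to 699 and -0.12 for the 14 longer ones. In Prmt5 KO 2 the same bins gave 0.75, 0.59, 0.41, 0.27 and 0.24. The trend was not limited to Prmt5 KO: Control 4 gave 0.72, 0.43, 0.18, -0.01 and -0.06. Control 3 gave -0.41, -0.33, -0.24, -0.19 and -0.18, and the bins of Control 1 and Control 2 followed no such order. Prmt5 KO 3 gave 0.36, 0.17, 0.13, 0.08 and -0.01. Prmt5 KO 4 was low only in the first bin (-0.71) and between 0.10 and 0.24 in the others, so its pattern rests on those 9 members. Protein-coding genes outside the ribosome followed the same order in Prmt5 KO 1 and 2 with smaller values, but not in Prmt5 KO 4. In Prmt5 KO 1 their median was -0.37 under 300 bases (223 genes), -0.20 from 300 to 399 (297 genes) and 0.06 at 700 and over (8378 genes), and in Prmt5 KO 2 it was 0.32, 0.17 and 0.00. In Prmt5 KO 4 it was 0.07, 0.08 and -0.04. In Control 4 it was 0.25, 0.18 and 0.00, falling with length as among the members. It rose with length in Control 1 (-0.16, -0.13 and 0.04) and in Control 3 (-0.09, -0.02 and 0.04). In Prmt5 KO 3 it was 0.16, 0.06 and 0.03.

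**Figure D4:**
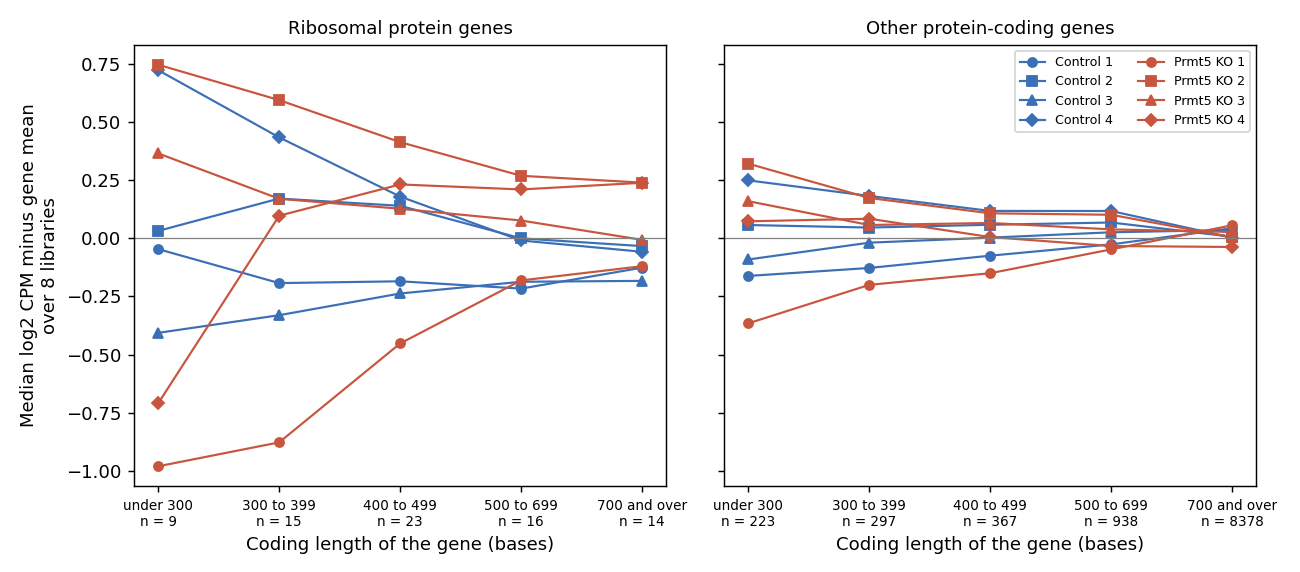
Median log2 CPM minus the gene's mean over 8 libraries (y axis) by coding length (x axis, bases; n is the number of genes) for the ribosomal protein genes (left) and all other protein-coding genes tested (right); each line is 1 library, blue for Control and red for Prmt5 KO. Below 300 bases the members lie at -0.98 in Prmt5 KO 1, 0.75 in Prmt5 KO 2 and 0.72 in Control 4. The other genes lie at -0.37, 0.32 and 0.25 in these libraries.

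The same split appeared in the spread of single members. The SD of log2 CPM within groups had a median of 0.459 for short and 0.213 for long members, and its correlation with coding length over the 77 members was -0.63 (Spearman -0.71). Low members also varied more, with a correlation of -0.67 between SD and mean log2 CPM, and level and length went together among members, so both relations share their points. The largest SDs were those of Rpl37 (1.02), Rps29 (0.893) and Rps28 (0.847). The smallest were those of Rpl15 (0.0610), Rpl4 (0.0928) and Rpl14 (0.110).

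Rpl37, a small zinc-binding protein of the 60S subunit, was at 299.7, 138, 76.8 and 205 CPM in Control and at 42.0, 287, 170.4 and 95.7 CPM in Prmt5 KO. Rps29, a small zinc-binding protein of the 40S subunit, was at 10.1, 8.48, 7.68 and 22.3 CPM in Control and at 4.90, 20.7, 14.9 and 4.49 CPM in Prmt5 KO. Rps28 was at 29.4, 46.4, 28.0 and 84.1 CPM in Control and at 16.7, 70.0, 50.9 and 23.2 CPM in Prmt5 KO. All 3 were low in Prmt5 KO 1 and 4 and high in Prmt5 KO 2, and Rps28 and Rps29 were highest in Control 4. By contrast Rpl15 stayed between 405 and 454 CPM in all 8 libraries, and Rpl14 between 699 and 914 CPM. Rpl37a, with 276 coding bases and named after its values were seen, was a short member without this pattern, at 89.4 to 102 CPM in Control and 82.2 to 109.7 CPM in Prmt5 KO.

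**Figure D5:**
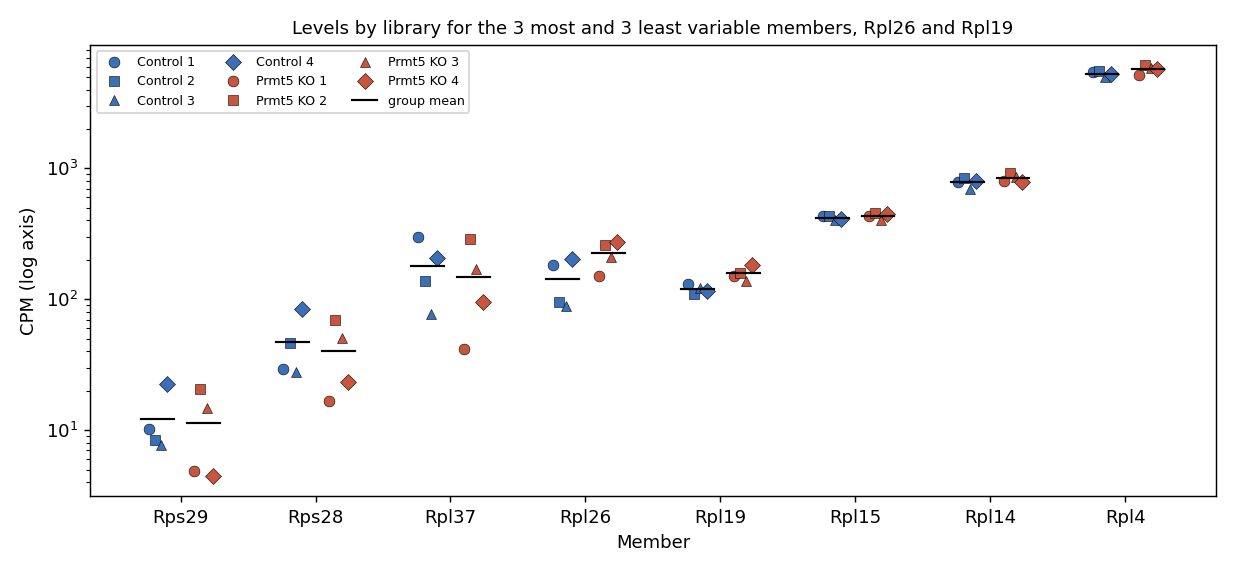
Level (CPM, log axis) of 8 members in each of the 8 libraries; blue symbols are Control, red symbols Prmt5 KO, the symbol shape gives the library number and bars are group means. Rps29, Rps28 and Rpl37 spread widely within both genotypes, Rpl15, Rpl14 and Rpl4 hardly at all, and in Rpl19 every Prmt5 KO library lies above every Control library.

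The length relation also touches the comparison of genotypes. The median log2 fold change was 0.09 for the short members, of which 33 of 47 were above 0, and 0.13 for the long members, of which 27 of 30 were. Over the 77 members the log2 fold change and coding length had a correlation of 0.28 (Spearman 0.32). Of the 5 members with an unadjusted p under 0.05, Rpl26 was short and the others long. With the level of short genes outside the ribosome as a covariate, an analysis added after the data were seen, the median of the members was 0.07 and 0 were called.

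Genes around the ribosomal proteins were read from the same analysis. Of 10 genes outside the naming rule, Rack1 beside paralogues and fusion genes of ribosomal proteins, 9 were tested and 0 were called, with 1 higher and 0 lower at an unadjusted p under 0.05 (median log2 fold change 0.19). The 1 higher was Rack1, a scaffold protein of the 40S subunit and the most abundant of them, which went from 2730.3 ± 392 to 3525 ± 749 CPM (mean ± SD, n = 4 each; log2 fold change 0.37, adjusted p = 0.551, edgeR). Of 30 elongation factors and other TOP or mTOR genes 0 were called, with 2 higher and 0 lower at an unadjusted p under 0.05 (median 0.07). These 2 were Eef1b2, the exchange factor of the elongation factor that delivers transfer RNA (1853 ± 260.2 to 2484 ± 479 CPM, SD, n = 4 each), and Tpt1, a classical TOP gene (465 ± 114 to 624 ± 102 CPM, SD, n = 4 each).

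Of 85 tested genes of ribosome biogenesis and RNA polymerase I, 0 were called, with 4 higher and 4 lower at an unadjusted p under 0.05 and a median of -0.01. Utp15 and Brix1, assembly factors of the 40S and the 60S precursor, had the smallest p of the list, with log2 fold changes of 0.51 and 0.42 (adjusted p = 0.529 and 0.540, edgeR). Of 78 mitochondrial ribosomal proteins, which form a separate ribosome, 0 were called, with 3 higher and 1 lower at that level and a median of -0.0036. Mrps2 was at -0.60 and Mrpl9 at 1.04. DESeq2 and limma voom called 0 genes of each of these 4 lists, whose background is the one given for the members.

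For 11 members, among them Rps16, Rps21, Rpl41, Rps27a, Rpl7 and Rpl10, the counts came from a transcript that is not annotated as protein coding. Exons of 10 members, among them Rpl5, Rpl12 and Rps10, overlap those of another gene, in 8 of them on the opposite strand. The values of all these members are uncertain.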

How the data were processed

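Read counts per transcript were deposited by the authors as whole numbers, 1 file per library. Builds named in the submitters' processing notes were GRCm38 and mm10. Aligner, counter, strand setting and treatment of multiply fitting reads were not given in the sources used here. Transcripts were matched to GENCODE M21: 64258 of 66262 identifiers (97.0%) matched, and the others, 1.75 to 1.90% of counts, were left out. For each gene, the count of the transcript with the largest sum over all libraries was used. The design assumed gene counts, and the same test was kept for these values.

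Genes were kept by filterByExpr (minimum count 10, minimum total 15), scaled by TMM and tested with edgeR's robust quasi-likelihood test over all 10990 genes with Benjamini-Hochberg adjustment at 0.05. CPM used TMM-scaled library sizes. Values per kb used the counts and the length of the principal transcript with counts. The gene lists and the members were chosen with earlier results of these data known. Named genes were Prmt5, the members of 6 role lists, the 8 members per direction with the smallest p, the 5 highest and 5 lowest per kb, the 3 most and 3 least variable, members without overlap, and 2 genes from each other list. No libraries were identical. Same-numbered libraries had correlations of deviations of 0.0023 to 0.069, and differently numbered ones of -0.094 to 0.036. The labels do not say that the numbers pair libraries, so the replicate block was kept as an alternative. The test was checked on simulated data. Alternatives covered scaling, tool, filter, block, gene value, pseudogenes, depth, a covariate and left-out libraries. The software was edgeR 4.0.16, DESeq2 1.42.0 and limma 3.58.1 in R 4.3.3, with matplotlib 3.10.9 for figures. Values of 2 members are not reported here, and the figures leave them out; counts and medians over the 77 members hold them.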

Additional observations from a re-analysis of the deposited data

Results flagged for a closer look

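A search of 118 sets of 4 values, each set from 1 genotype, gave 5 in which 1 library stood far from the rest. About 1 in 20, or 5.9, would do so by chance. Rpl8 was high in Prmt5 KO 4 (8025 CPM), while the other Prmt5 KO libraries lay at 6312 to 6571 CPM. Among the Control libraries, Control 4 was high for Rplp1 (209 CPM, the others at most 119.6) and for Rps29 (22.3 CPM, the others at most 10.1). Rpl17 was low in Prmt5 KO 1 (394 CPM), with the other Prmt5 KO libraries at 506 to 528 CPM. The share of counts on mitochondrial genes was high in Prmt5 KO 1 (11.3%), with the other Prmt5 KO libraries at 9.01 to 9.29% and Control 2 at 11.5%.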

How the results depend on the processing

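In all 22 alternatives 0 members were called. Their median log2 fold change stayed above 0, from 0.03 (without Prmt5 KO 2) to 0.26 (without Prmt5 KO 1 and 4), and was 0.08 with library size alone and 0.05 in limma voom. The difference in the share of counts (0.248 percentage points) ran from 0.244 to 0.357 with other gene values. Of 45 named members 22 kept the sign of their fold change in every alternative and 23 did not. None of the 989 values moved by more than the spread between libraries. Leaving out a library moves a group mean by only part of that spread, so this outcome was partly fixed in advance and shows little about stability. The median correlation among members (0.62) ran from 0.39 to 0.69 with single libraries left out, the low value without Prmt5 KO 1; this alternative was chosen after seeing the data.

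Over all genes, 3 were called in the fit reported. The count was 107 with DESeq2, 7 with no filter, 0 without Control 2 and 3, and 1 each with limma voom, summed transcripts, the replicate block, the short-gene covariate (chosen after seeing the data) and without Prmt5 KO 1 and 4. Leaving out single libraries gave 1 to 2. The cause was not tested. With the replicate block 0 members were called and their median was 0.09; the libraries share only a number, and 3 of 4 Control libraries correlated best with their own number. Depth limits Rpl36 most, which had 142 counts and was not tested after thinning to equal depth.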
